A study of Homo sapiens with 6 samples.

Results

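PARP9 and DTX3L are adjacent genes on chromosome 3 that were read in every library labelled C17orf80 knockout and were almost without reads in wild-type (WT) libraries of HEK-293T cells. They were chosen for that difference, so their own values are given as a description with no test. The other 8 of the 10 genes described, PARP14, PARP10, PARP12, PARP1, PARP2, DTX2, DTX3 and DTX4, were chosen by family name. The 10 genes stand among 61552 Ensembl genes and 796 unannotated transcripts in the count tables, and 17452 of these features passed the filter on low counts and were tested. PARP9, DTX3L, PARP10, PARP1, PARP2 and DTX2 passed that filter, and PARP14, PARP12, DTX3 and DTX4 did not.

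HEK-293T is an established human embryonic kidney cell line. Per the labels, 3 libraries labelled KO came from cells given a C17orf80 sgRNA with CRISPR/Cas9, and 3 WT libraries came from cells given a non targeted sgRNA. Puromycin was the agent for picking monoclonal cells, mRNA was captured by its poly(A) tail, and reads were counted per gene. The number of clones and whether replicates were separate cultures are not given in the sources used here. A difference between clones and an effect of the guide therefore cannot be told apart. The p-values describe the scatter among these 6 libraries alone, part of which may be technical.

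Gene counts summed to between 15942017 and 16122771 in the libraries labelled KO, and to between 14982340 and 16278091 in WT libraries. The C17orf80 transcript itself had 763, 699 and 698 counts in the libraries labelled KO, against 397, 451 and 476 counts in WT libraries, so its level was higher in the group in which it is labelled as knocked out (log2 fold change 0.78 ± 0.17 SE, adjusted p = 0.0232 by edgeR). Counts over the whole transcript do not show whether its reading frame is intact, and every direction below is between libraries by these labels. Labelled-KO replicate 1 stood apart: its Pearson's r across genes was 0.932 with labelled-KO replicate 2 and 0.945 with labelled-KO replicate 3, against 0.987 between those replicates and 0.988 between each pair of WT libraries. Reads outside annotated genes made up 15.9% of all its tallied reads, those not assigned to a gene included. The share was 10.4% and 10.8% in labelled-KO replicates 2 and 3 and 8.75% to 9.87% in WT libraries. Results are therefore also given without it. Markers of HEK-293T cells (KRT8, KRT18, VIM, PAX2, NEFM, NEFL and EYA1) were read in every library and summed to 572 to 626 CPM (counts scaled to library depth and to a common total) in the libraries labelled KO and to 668 to 709 CPM in WT libraries. Single markers differed both ways. NEFL averaged 69.8 CPM in the libraries labelled KO and 194 CPM in WT libraries, EYA1 7.43 and 19.7 CPM, and PAX2 5.51 and 8.90 CPM. KRT8 averaged 95.4 CPM in the libraries labelled KO and 67.7 CPM in WT libraries. Its 881 counts in labelled-KO replicate 1 were the fewest of the 6 libraries. NEFM also averaged lower in the libraries labelled KO, and KRT18 and VIM averaged higher.

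PARP enzymes transfer ADP-ribose from NAD+ to proteins and nucleic acids, and the DTX (Deltex) proteins are E3 ubiquitin ligases with a shared C-terminal domain that binds ADP-ribose. PARP9, which carries macrodomains that read ADP-ribose, and DTX3L form a heterodimer that modifies ubiquitin and acts at DNA damage and in antiviral responses. The genes lie head to head, and both are known as interferon-induced genes in lymphoid and epithelial cells. PARP14 and PARP15, the other macrodomain PARP genes, lie beside them.

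PARP9 (ENSG00000138496) spans chr3:122527924-122564784 on the minus strand and DTX3L (ENSG00000163840) spans chr3:122564338-122575203 on the plus strand, in RefSeq coordinates of GRCh38.p14. The annotated spans overlap by 447 bases. RefSeq gives PARP9 a start 38 bases from that of DTX3L, at position 122564300, and a farther one at 122564784, inside the DTX3L span. Promoter windows of 250 bases before to 50 bases after each start were searched on both strands for GAAA, any 2 bases and GAAA again, the core of the interferon-stimulated response element. It was present in 1255 of 35116 RefSeq windows (3.57%), in 3 of 20 PARP family windows and in 1 of 4 DTX family windows. The PARP family windows were those of PARP9, PARP12 and PARP14, and the DTX family window was that of DTX3L. The DTX3L window and the nearer PARP9 window hold the same 10 bases, chr3:122564332-122564341, which lie from position -6 to 3 of the DTX3L start and from -41 to -32 of the PARP9 start, with the start base as 0. The PARP14 match lies at chr3:122680810-122680819, the PARP12 match at chr7:140062952-140062961, the SAMD9 match at chr7:93118106-93118115 and the NMI match at chr2:151289822-151289831. The stretches around these matches are shown because they are the one promoter feature searched for that the pair shares with PARP14. Some interferon response genes described further on also hold it. Of the 6 interferon response genes called higher further on, SAMD9, NMI, IFIT1 and IFIT5 had a match, and SAMD9L and TRIM25 had none. Capitals mark the match, and each stretch is written on the strand that reads GAAA, which is the plus strand for DTX3L.
DTX3L and PARP9: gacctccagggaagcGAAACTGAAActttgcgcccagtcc
PARP14: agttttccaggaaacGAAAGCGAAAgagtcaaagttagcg
PARP12: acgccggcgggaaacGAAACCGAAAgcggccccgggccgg
SAMD9: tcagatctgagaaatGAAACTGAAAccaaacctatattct
NMI: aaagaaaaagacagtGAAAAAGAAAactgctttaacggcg

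The same 10 letters stand in the DTX3L and SAMD9 stretches. A match is a run of letters in a reference window and not a measured binding site. The 250 bases before the PARP14 start, chr3:122680589-122680838 on the plus strand, are shown as the window of the neighbour that carries the match but had few reads.
PARP14: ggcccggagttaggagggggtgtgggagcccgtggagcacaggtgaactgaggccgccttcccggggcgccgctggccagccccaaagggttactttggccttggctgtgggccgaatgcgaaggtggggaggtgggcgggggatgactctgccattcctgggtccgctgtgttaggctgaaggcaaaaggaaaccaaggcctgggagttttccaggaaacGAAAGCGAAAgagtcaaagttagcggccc

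The ratio of observed to expected CpG in the windows was 0.61 for DTX3L, 0.78 for the nearer PARP9 start, 0.34 for the farther one, 0.65 for PARP14 and 0.92 for PARP12, beside a median of 0.58 over all windows. The second interferon motif searched, TTCNNNGAA, whose reverse complement is itself, was in 7.66% of all windows and in 4 of 20 PARP family windows, among them those of PARP14, PARP15 and PARP2. It was also in the DTX2 window and in neither the DTX3L window nor a PARP9 window. Of the 22 PARP and DTX genes, 17 had an entry in the promoter table.

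PARP9 had 159, 145 and 163 counts in the libraries labelled KO, against 0, 0 and 0 counts in WT libraries. The 3 libraries labelled KO lay close together and the groups did not overlap, a property shared by 47.6% of all tested genes in either direction. Scaled to depth these were 11.7, 8.78 and 9.77 CPM in the libraries labelled KO, a mean of 10.1 ± 1.5 CPM (SD, n = 3). Set against a limit of 3 counts over the WT group, the level was at least 162-fold higher in the libraries labelled KO. Intervals and limits of this kind cover counting error only. In bulk RNA, more cells with the transcript and more transcript in each cell cannot be told apart.

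DTX3L had 469, 232 and 235 counts in the libraries labelled KO, against 0, 1 and 0 counts in WT libraries. The groups did not overlap, and labelled-KO replicate 1 was the highest library. The levels were 34.6, 14.1 and 14.1 CPM in the libraries labelled KO, a mean of 20.9 ± 11.9 CPM (SD, n = 3). The ratio of the depth-scaled counts was 974, with a 95% counting interval of 174 to 38508 that rests on the single WT read.

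The ligase gene gave more reads than its PARP partner in each library labelled KO. Of 628 reads of the pair in labelled-KO replicate 1, 74.7% fell to DTX3L (exact Clopper-Pearson 95% interval 71.1% to 78.0%). The share was 61.5% of 377 reads (56.4% to 66.5%) in labelled-KO replicate 2 and 59.0% of 398 reads (54.0% to 63.9%) in labelled-KO replicate 3. The library that stands apart over all genes thus also held the highest DTX3L share. Whether counting used strand is not stated, so reads in the overlapping bases of the pair are uncertain for both genes, and the counts are not scaled to transcript length.

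**Figure D1:**
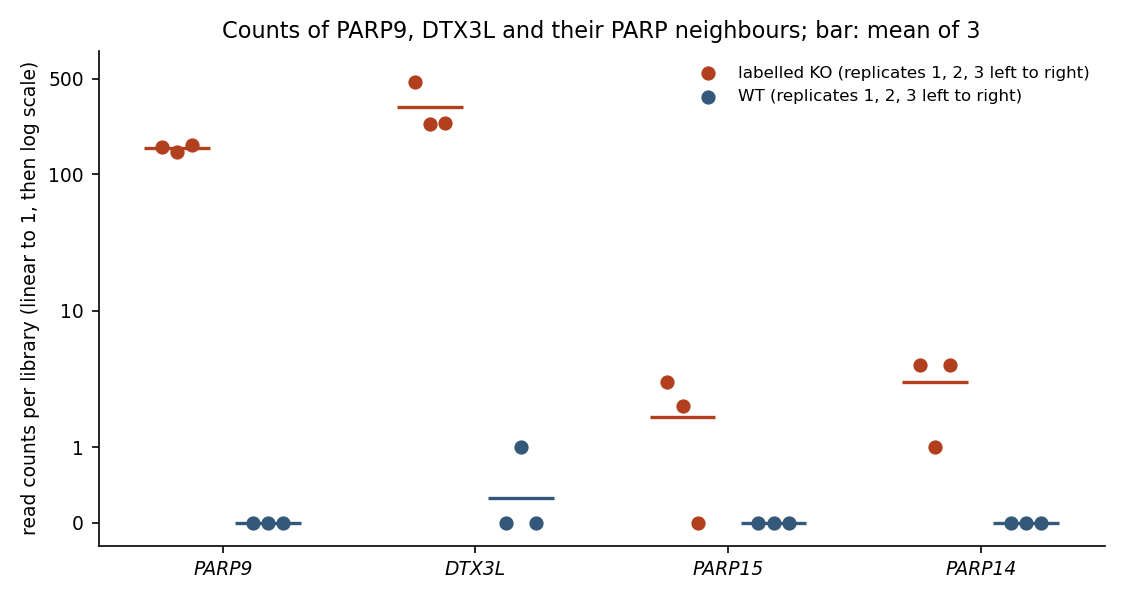
Read counts per library (vertical axis, linear to 1 and then a log scale) of PARP9, DTX3L, PARP15 and PARP14, with libraries labelled KO left of WT libraries, replicates 1, 2 and 3 from left to right, and a bar at the mean of 3. PARP9 and DTX3L counts are 145 or more in every library labelled KO, while PARP14 and PARP15 counts are 4 or fewer in each library.

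PARP14 (ENSG00000173193), which encodes a macrodomain mono-ADP-ribosyltransferase known as a partner of STAT6, starts 105636 bases beyond the end of DTX3L. It had 4, 1 and 4 counts in the libraries labelled KO, against 0, 0 and 0 counts in WT libraries. Reads were thus seen in the libraries labelled KO and in no WT library, at a small fraction of the level of the adjacent pair. The mean was 0.199 ± 0.123 CPM in the libraries labelled KO (SD, n = 3), at least 3.12-fold above the WT limit of 3 counts. PARP14 did not pass the filter, and edgeR without the filter gave an adjusted p of 0.191. PARP15, a macrodomain PARP whose start lies 2447 bases beyond the end of DTX3L, had 3, 2 and 0 counts in the libraries labelled KO and 0, 0 and 0 counts in WT libraries. Its groups overlapped at 0.

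Of the 24 protein-coding genes nearest to the pair, 12 on each side and PARP14 and PARP15 included, 17 were tested. None had an adjusted p under 0.05 by edgeR, beside 15.1% of all tested genes. At an unadjusted p under 0.05, 1 was higher and 2 were lower; limma-voom called 0 and DESeq2 called 1 lower. Their median log2 fold change was 0.18, beside 0.01 over all genes tested. KPNA1, which encodes an importin alpha, ends 12985 bases from PARP9, and it had 1351, 796 and 1091 counts in the libraries labelled KO, against 885, 1061 and 883 counts in WT libraries. Its groups overlapped (0.29 ± 0.26, adjusted p = 0.461 by edgeR, and -0.02 without labelled-KO replicate 1). HSPBAP1, the first gene beyond PARP14, differed by 0.33 ± 0.24 on the log2 scale (adjusted p = 0.380 by edgeR, and 0.15 without labelled-KO replicate 1). SEMA5B, a semaphorin gene, had 8, 13 and 11 counts in the libraries labelled KO, against 22, 16 and 29 counts in WT libraries (-1.01 ± 0.40, adjusted p = 0.124 by edgeR). PDIA5, a disulfide isomerase gene, differed by -0.84 ± 0.25 (adjusted p = 0.0604 by edgeR), and it was the gene DESeq2 called. Without labelled-KO replicate 1, 1 neighbour (WDR5B) was higher and 4 (GOLGB1, IQCB1, PDIA5 and MYLK) were lower by edgeR, beside 44.0% of all genes called in that fit.

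**Figure D2:**
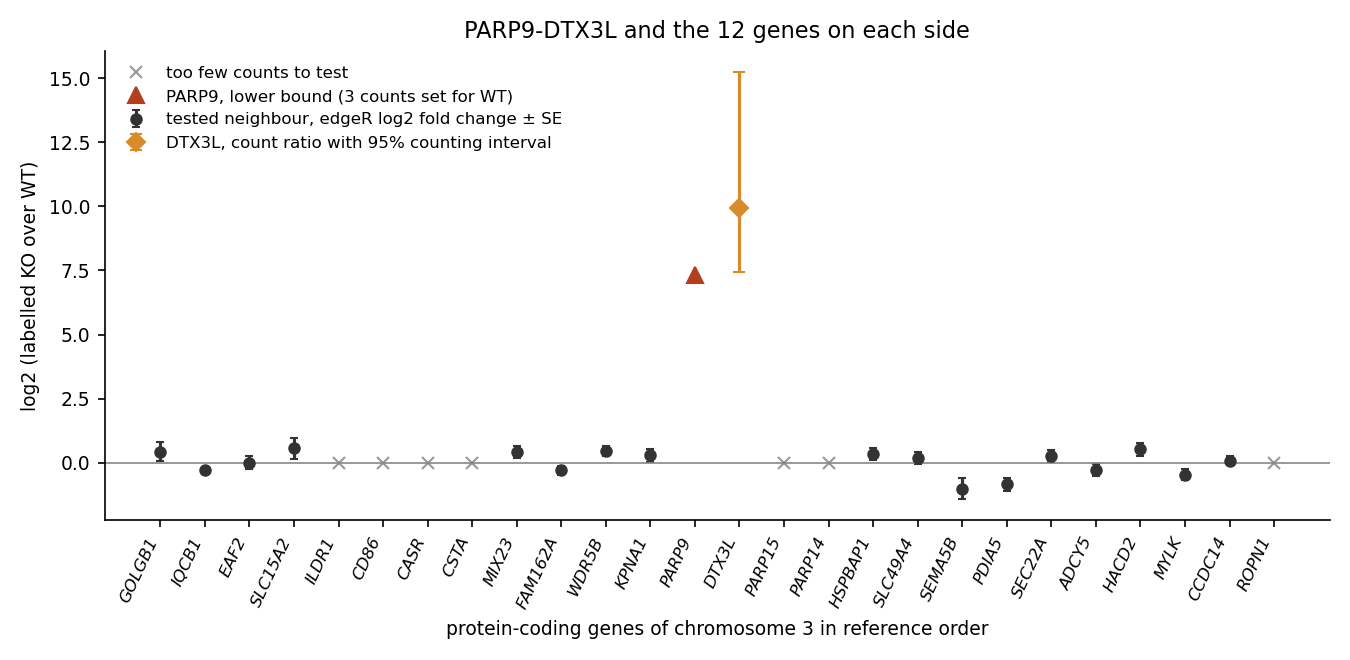
The log2 ratio of libraries labelled KO over WT libraries (vertical axis) for PARP9, DTX3L and the 12 protein-coding genes on each side in reference order, with edgeR fold changes ± SE for tested neighbours, a lower bound for PARP9 and a 95% counting interval for DTX3L. Crosses on the zero line mark genes with too few counts, which carry no value. SEMA5B at -1.01 and PDIA5 at -0.84 are the tested neighbours farthest from the line.

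Among all 19156 protein-coding genes, 37 (0.193%) had at most 3 counts in the WT group as a whole and at least 20 counts in each library labelled KO. PARP9 and DTX3L were among them. Of these 37, 6 pairs were direct neighbours in reference order. Beside PARP9 and DTX3L they were TLL1 and SPOCK3 on chromosome 4, with 126 and 156 counts over the libraries labelled KO against 0 and 1 over WT libraries, and 4 pairs within the clustered protocadherins of chromosome 5. The mirror rule was met by 25 genes (0.131%) with 2 neighbouring pairs, CT45A10 with SAGE1 and MAGEA3 with CSAG2, all on the X chromosome. Protocadherin and MAGE genes have near-identical copies, so the counts of those pairs are uncertain.

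The rest of the PARP and DTX families comprised 20 genes, of which 15 were tested. By edgeR 0 of them were higher and 2 were lower in the libraries labelled KO, beside 8.64% of all tested genes called higher and 6.50% called lower. The same counts came from DESeq2 and limma-voom, and at an unadjusted p under 0.05 the counts were 1 higher and 2 lower. Their median log2 fold change was 0.06, beside 0.01 over all genes tested. Without labelled-KO replicate 1, PARP3, TIPARP and PARP16 were called higher and PARP4 and DTX1 lower, beside 22.3% and 21.7% of all genes in that fit. None of the 8 other listed members was called, with or without that library, and of the 4 tested none had an unadjusted p under 0.05 or was called by DESeq2 or limma-voom.

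PARP1 makes most of the poly(ADP-ribose) formed at DNA breaks, and PARP2 is its closest relative. PARP1 had 14849, 24156 and 23662 counts in the libraries labelled KO, against 21230, 23189 and 22490 counts in WT libraries. It averaged 1325 ± 201 CPM in the libraries labelled KO and 1375 ± 1.77 CPM in WT libraries (SD, n = 3 each), with labelled-KO replicate 1 the lowest library. The groups overlapped (log2 fold change -0.05 ± 0.15, adjusted p = 0.829 by edgeR), and the sign turned to 0.08 without labelled-KO replicate 1. PARP2 had 614, 1103 and 1194 counts in the libraries labelled KO, against 1002, 1027 and 1077 counts in WT libraries. It also overlapped between groups (-0.06 ± 0.19, adjusted p = 0.848 by edgeR, and 0.12 without labelled-KO replicate 1).

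PARP3, a mono-ADP-ribosyltransferase that acts at DNA breaks, had 114, 337 and 270 counts in the libraries labelled KO, against 133, 168 and 187 counts in WT libraries. The groups overlapped: labelled-KO replicate 1 was the lowest of the 6 libraries, and labelled-KO replicates 2 and 3 were the highest. The difference was 0.59 ± 0.32 (adjusted p = 0.242 by edgeR) and 0.88 without that library (adjusted p = 3.31e-05 by edgeR). PARP4, the PARP of vault ribonucleoprotein particles, had 488, 392 and 457 counts in the libraries labelled KO, against 720, 781 and 768 counts in WT libraries. Each library labelled KO lay below each WT library, at a mean of 29.0 ± 6.29 CPM in the libraries labelled KO and 46.7 ± 0.341 CPM in WT libraries (SD, n = 3 each). PARP4 fell by 0.68 ± 0.18 on the log2 scale (adjusted p = 0.0443 by edgeR), and by 0.86 without labelled-KO replicate 1 (adjusted p = 1.01e-07 by edgeR). The call was lost with relative-log-expression size factors (adjusted p = 0.0517 by edgeR) and on leaving out any other single library (adjusted p from 0.0746 to 0.156 by edgeR).

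PARP10 and PARP12 are mono-ADP-ribosyltransferases known to rise with interferon. PARP10 had 3, 34 and 14 counts in the libraries labelled KO, against 19, 27 and 20 counts in WT libraries. Its groups overlapped (-0.35 ± 0.66, adjusted p = 0.732 by edgeR, and 0.10 without labelled-KO replicate 1). PARP12, whose window carries the interferon motif, had 0, 0 and 0 counts in the libraries labelled KO and 0, 0 and 2 counts in WT libraries. It was therefore at or near 0 in both groups, and no fold is given. ZC3HAV1, the antiviral zinc finger member that binds viral RNA, differed by 0.15 ± 0.18 (adjusted p = 0.598 by edgeR, and -0.04 without labelled-KO replicate 1).

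TIPARP, a target of the aryl hydrocarbon receptor, had 733, 468 and 579 counts in the libraries labelled KO, against 384, 397 and 423 counts in WT libraries. The groups did not overlap, and labelled-KO replicate 1 was highest (0.66 ± 0.24, adjusted p = 0.111 by edgeR, and 0.36 without that library, adjusted p = 0.00903 by edgeR). PARP16, a PARP of the endoplasmic reticulum membrane, differed by 0.32 ± 0.21 (adjusted p = 0.317 by edgeR) and by 0.52 without labelled-KO replicate 1 (adjusted p = 0.000231 by edgeR). The tankyrase genes TNKS and TNKS2, whose products modify axin and telomere proteins, differed by 0.77 ± 0.44 and 0.42 ± 0.30 (adjusted p = 0.258 and 0.360 by edgeR), and by 0.09 and -0.02 without labelled-KO replicate 1. PARP6, PARP8 and PARP11 lay between -0.12 and 0.30 on the log2 scale and did not pass the test, and PARP11 was at -0.21 without labelled-KO replicate 1.

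The DTX genes other than DTX3L did not share its pattern. DTX1, the founding human Deltex and a regulator of Notch signalling on chromosome 12, had 0, 1 and 0 counts in the libraries labelled KO, against 27, 28 and 27 counts in WT libraries. Its groups were apart in the opposite direction to DTX3L, with a mean of 0.0202 ± 0.0350 CPM in the libraries labelled KO and 1.69 ± 0.0562 CPM in WT libraries (SD, n = 3 each). The ratio of libraries labelled KO over WT libraries was 0.0127 (95% counting interval 0.000317 to 0.0727), and DTX1 fell by 5.86 ± 0.71 on the log2 scale (adjusted p = 0.00326 by edgeR). It was called under each alternative run, with an adjusted p of at most 0.0259 (edgeR with the replicate block). These runs reuse the same libraries, and DTX1 passed the filter on low counts through WT libraries alone.

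DTX2, the other Deltex with enough reads, had 77, 102 and 135 counts in the libraries labelled KO, against 118, 133 and 158 counts in WT libraries. The groups overlapped (-0.33 ± 0.22, adjusted p = 0.326 by edgeR). DTX4, which is known to mark the kinase TBK1 for degradation, had 0, 0 and 0 counts in the libraries labelled KO, against 7, 3 and 2 counts in WT libraries. It was at least 3.84-fold lower in the libraries labelled KO by counting alone and was too low to test. DTX3 had 0, 4 and 1 counts in the libraries labelled KO, against 1, 0 and 1 counts in WT libraries, a ratio of 2.60 with a 95% counting interval of 0.426 to 27.3.

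**Figure D3:**
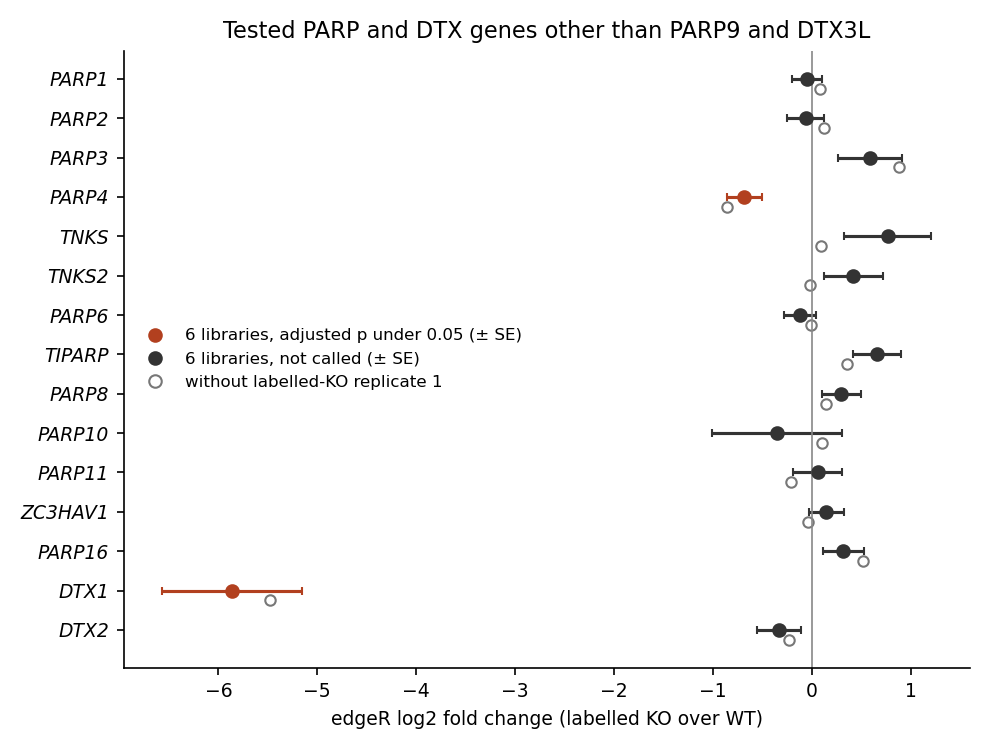
The edgeR log2 fold change of libraries labelled KO over WT libraries (horizontal axis, ± SE) for the 15 tested PARP and DTX genes other than PARP9 and DTX3L, with an open circle for the value without labelled-KO replicate 1. DTX1 at -5.86 and PARP4 at -0.68 are coloured as called, and the other 13 genes are not called over 6 libraries.

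Of 23 genes for cofactors, readers and erasers of ADP-ribose, 19 were tested, and by edgeR 0 were higher and 1 was lower, beside 8.64% and 6.50% of all tested genes. At an unadjusted p under 0.05 the counts were 1 higher and 3 lower, DESeq2 called 1 higher and 2 lower, and limma-voom called 1 lower. The median log2 fold change was -0.14, beside 0.01 over all genes tested. ART5, an arginine-specific ADP-ribosyltransferase of the cell surface family, had 23, 44 and 39 counts in the libraries labelled KO, against 149, 147 and 138 counts in WT libraries. Its groups did not overlap, and it fell by 1.99 ± 0.24 on the log2 scale (adjusted p = 0.00327 by edgeR). HPF1, the cofactor that directs PARP1 and PARP2 to serine, differed by 0.40 ± 0.13 (adjusted p = 0.0803 by edgeR). PARG, which cuts poly(ADP-ribose) chains, differed by 0.37 ± 0.17 (adjusted p = 0.166 by edgeR). ADPRS, which removes ADP-ribose from serine, had 150, 543 and 419 counts in the libraries labelled KO, against 740, 793 and 772 counts in WT libraries. It differed by -1.04 ± 0.35 (adjusted p = 0.0882 by edgeR), was called lower by DESeq2, and was at -0.70 without labelled-KO replicate 1 (adjusted p = 5.00e-06 by edgeR). Without labelled-KO replicate 1, 3 of the list (HPF1, PARG and ADPRHL1) were called higher and 6 lower, ADPRS and ART5 among them, beside the 22.3% and 21.7% given above for all genes.

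The NMNAT enzymes make NAD+, the substrate of PARP enzymes, in different compartments. Of 11 NAD supply genes, 9 were tested, and 2 were called higher and 1 lower by edgeR, beside 8.64% and 6.50% of all tested genes. NMNAT2, the cytosolic and Golgi enzyme, had 134, 105 and 106 counts in the libraries labelled KO, against 49, 39 and 52 counts in WT libraries, and it rose by 1.38 ± 0.28 (adjusted p = 0.0196 by edgeR). NMNAT3, the mitochondrial enzyme, had 72, 66 and 61 counts in the libraries labelled KO, against 21, 25 and 32 counts in WT libraries, and it rose by 1.43 ± 0.29 (adjusted p = 0.0197 by edgeR). NMNAT1, the nuclear enzyme, had 73, 116 and 134 counts in the libraries labelled KO, against 236, 239 and 228 counts in WT libraries, and it fell by 1.08 ± 0.20 (adjusted p = 0.0150 by edgeR). The groups of each gene did not overlap. None of the list was called by edgeR when any single WT library was left out, and 6 were called without labelled-KO replicate 1, beside 44.0% of all genes in that fit.

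Because PARP9 and DTX3L are known interferon-induced genes, a list of 49 genes of interferon signalling and response was read beside them, of which 27 were tested. By edgeR 6 were higher (SAMD9, SAMD9L, NMI, TRIM25, IFIT1 and IFIT5) and 0 were lower, beside 8.64% and 6.50% of all tested genes. At an unadjusted p under 0.05 the counts were 9 higher and 2 lower, limma-voom called 0 lower and DESeq2 called 1 lower. The median log2 fold change was 0.31, beside 0.01 over all genes tested. Without labelled-KO replicate 1, 9 were called higher and 5 lower, beside 22.3% and 21.7% of all genes.

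SAMD9, a growth-restraining antiviral gene, had 539, 255 and 270 counts in the libraries labelled KO, against 7, 17 and 6 counts in WT libraries. Like DTX3L it was highest in labelled-KO replicate 1 and did not overlap between groups, and it rose by 5.26 ± 0.56 on the log2 scale (adjusted p = 0.00204 by edgeR, and 4.67 without that replicate). Its paralogue SAMD9L, which lies 12077 bases away on chromosome 7, had 21, 12 and 16 counts in the libraries labelled KO, against 0, 0 and 0 counts in WT libraries. It was at least 16.99-fold higher in the libraries labelled KO (adjusted p = 0.0136 by edgeR). NMI, an interferon-induced partner of STAT proteins, had 24, 31 and 31 counts in the libraries labelled KO, against 1, 2 and 2 counts in WT libraries, and it rose by 4.06 ± 0.45 (adjusted p = 0.00220 by edgeR). TRIM25, the ligase that activates the RNA sensor RIG-I, had 2016, 1786 and 1864 counts in the libraries labelled KO, against 743, 807 and 772 counts in WT libraries, and it rose by 1.36 ± 0.16 (adjusted p = 0.00320 by edgeR). IFIT1, which binds foreign RNA ends, had 188, 248 and 201 counts in the libraries labelled KO, against 91, 122 and 108 counts in WT libraries, and it rose by 1.05 ± 0.19 (adjusted p = 0.0126 by edgeR). None of these 5 called genes overlapped between groups, beside 47.6% of all tested genes in either direction. SAMD9L and NMI were at 2 counts or fewer in every WT library, and SAMD9 was at 7, 17 and 6 counts there. SAMD9, SAMD9L and NMI thus passed the filter on low counts through the libraries labelled KO alone. Their calls carry that limit, also where a WT library was left out. On leaving out any single WT library, SAMD9, TRIM25 and NMI were still called by edgeR and SAMD9L, IFIT1 and IFIT5 were not, and SAMD9L and IFIT5 were not called without labelled-KO replicate 3 either.

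The other 21 tested genes of the list did not pass the test, and 9 of the 49 had no reads. MX1, OAS1, OAS2, IFIH1, RSAD2, XAF1, PSMB8, PSMB9 and TAP1, which are standard interferon-induced genes, were those that had no count in any of the 6 libraries. PSMB8, TAP1 and PSMB9 lie together at chr6:32840717-32859851. The handling of reads that align at several places is not stated, so a count of 0 need not mean no transcript. ISG15, the ubiquitin-like modifier, had 7, 81 and 83 counts in the libraries labelled KO, against 96, 94 and 136 counts in WT libraries (-0.94 ± 0.64, adjusted p = 0.341 by edgeR, and -0.43 without labelled-KO replicate 1, the lowest library). Other uncalled genes leaned higher. OAS3 did not pass the filter, with 2, 19 and 8 counts in the libraries labelled KO and 0, 0 and 0 in WT libraries. EIF2AK2 differed by 0.89 ± 0.37 (adjusted p = 0.1405 by edgeR, and 0.30 without labelled-KO replicate 1). Without the filter, edgeR called 8 of the list higher, OAS3 and EIF2AK2 among them, and 1 lower (STAT2). That fit called 3444 features. IRF9, the DNA-binding subunit at the interferon-stimulated response element, had 0, 2 and 1 counts in the libraries labelled KO and 0, 0 and 0 counts in WT libraries. Of 39 listed genes with a promoter entry, 20 held that motif, and 10 of them were tested with 4 called, while 5 had no count in any library. Of the 19 without it, 12 were tested with 2 called (SAMD9L and TRIM25), and 3 had no count. All of these calls were higher, beside 8.64% of all tested genes called higher. The motif was in 24 of 59 windows of the list, beside 3.57% of all windows. Whether calls differ with the motif was not tested.

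**Figure D4:**
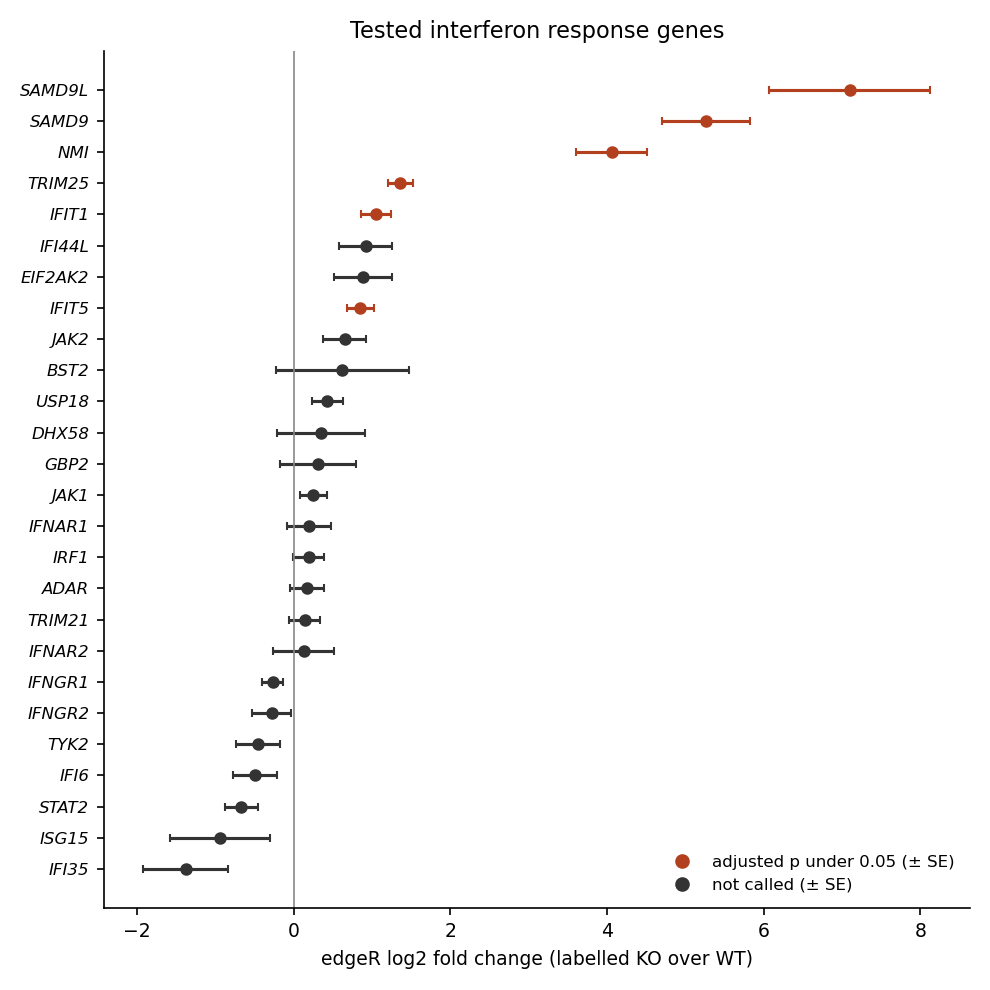
The edgeR log2 fold change of libraries labelled KO over WT libraries (horizontal axis, ± SE) for tested genes of the interferon list, with called genes coloured. The 6 called genes are all on the higher side, and the position of SAMD9L, which had no WT count, depends on the prior count of the fit.

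Deltex proteins were first known as regulators of Notch, so 26 Notch pathway genes were read beside DTX1, of which 23 were tested. By edgeR 2 were higher and 3 lower, beside 8.64% and 6.50% of all tested genes, with a median log2 fold change of 0.08 beside 0.01 over all genes tested. HEY1, a repressor that Notch switches on, had 3146, 3728 and 3759 counts in the libraries labelled KO, against 7294, 7353 and 7644 counts in WT libraries, and it fell by 1.01 ± 0.12 (adjusted p = 0.00295 by edgeR). MAML3, a coactivator of Notch, had 289, 268 and 266 counts in the libraries labelled KO, against 105, 120 and 108 counts in WT libraries, and it rose by 1.38 ± 0.19 (adjusted p = 0.00476 by edgeR). Neither gene overlapped between groups. The related repressor gene HEYL rose by 0.64 ± 0.14 (adjusted p = 0.0221 by edgeR), while the glycosyltransferase gene LFNG fell by 0.99 ± 0.26 (adjusted p = 0.0454 by edgeR) and the receptor gene NOTCH3 fell by 0.75 ± 0.20 (adjusted p = 0.0479 by edgeR). HEYL, LFNG and NOTCH3 were not called when labelled-KO replicate 3 or any single WT library was left out, LFNG also not without labelled-KO replicate 2, and 11 genes were called without labelled-KO replicate 1, beside 44.0% of all genes in that fit.

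Blood cells also express PARP9 and DTX3L, so 8 blood cell markers were read. They summed to 5.38, 7.02 and 6.78 CPM in the libraries labelled KO, against 5.00, 4.62 and 4.22 CPM in WT libraries. PTPRC, which all leukocytes express, and CD3E and HLA-DRA had no count in any library. CD74, the invariant chain of antigen presentation, had 46, 20 and 35 counts in the libraries labelled KO, against 8, 9 and 10 counts in WT libraries. The 3 endothelial markers (PECAM1, VWF and CDH5) summed to 0.664, 0.424 and 0.1199 CPM in the libraries labelled KO, against 0.0649, 0.296 and 0.183 CPM in WT libraries, with CDH5 at 0 throughout. The 3 fibroblast markers summed to 18.5 to 29.1 CPM in the libraries labelled KO, against 40.4 to 46.9 CPM in WT libraries. Nearly all of this was COL1A1, with 246, 480 and 432 counts in the libraries labelled KO, against 722, 706 and 661 counts in WT libraries, while COL1A2 had no count in any library. The part of these markers in the results above was not tested.

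Genes most like each member were ranked by Pearson's r of log2 CPM over the 6 libraries among 12992 genes. For PARP9 they were SUMO2, GALC, INA, PTPRZ1 and NUP210, with r of at least 0.9993, and DTX3L stood 60th with r = 0.9949. For DTX3L they were GPNMB, BTN3A2, SFPQ, PCDHGA4 and SPON1, with r from 0.9987 to 0.9995, and PARP9 stood 59th. The libraries form separate groups for each of these genes, so r is set mainly by the distance between groups. GALC had 151, 128 and 155 counts in the libraries labelled KO, against 0, 0 and 0 counts in WT libraries. INA had 459, 393 and 411 counts in the libraries labelled KO, against 0, 0 and 0 counts in WT libraries, and PCDHGA4 had 70, 43 and 54 counts in the libraries labelled KO, against 0, 1 and 0 counts in WT libraries. SUMO2, SFPQ, NUP210 and BTN3A2 were read in every library of both groups.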

How the data were processed

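The authors deposited whole-number counts per gene for each library, not normalised; tools listed in the submitters' processing notes, in no stated order, include HTSeq 0.12.4 and HISAT2 2.2.1, with GRCh38 as build and no counting options. The tables hold 62348 identifiers; 99.8% of Ensembl identifiers matched a symbol. Reads in no feature or ambiguous reads (8.75% to 15.9% and 9.74% to 12.5%) were left out of library sizes. Mitochondrial coverage files were not used here.

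The test was that of edgeR 4.0.16 under R 4.3.3 (TMM, filterByExpr, quasi-likelihood F test, group as the only term), with Benjamini-Hochberg adjustment over 17452 features at 0.05. CPM values use TMM library sizes, and errors of log2 fold changes are standard errors. For a group at 0 counts, 3 counts over the group set the limit. The members and gene lists were chosen with earlier results of these data known. Named genes are the members, the remaining family genes, list genes that were called or are central to the pathway, the nearest neighbours and the 5 most alike genes. Alternatives were DESeq2 1.42.0, limma-voom 3.58.1, relative-log-expression size factors, no filter, leaving out each library and a replicate block. The fit was also run on simulated counts with the same scatter for every gene and no library that stood apart. That run does not bear on the spread brought by labelled-KO replicate 1. No libraries were duplicates by a chi-square comparison. Sequences came from RefSeq GRCh38.p14 promoter tables. Values of some list members are not reported here, though they are counted in their lists.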

Additional observations from a re-analysis of the deposited data

How the results depend on the processing

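PARP9 and DTX3L were chosen for their difference, so their direction says nothing of stability. PARP9 had a fitted log2 fold change of 10.33 over 6 libraries, 9.81 with DESeq2, 8.34 with limma-voom and 10.25 to 10.41 with 1 library left out, and DTX3L had 9.52, 8.72 with limma-voom and 8.97 to 11.35 with 1 library left out. These fitted values depend on the prior count. The number of all genes called was 2641, against 4206 with DESeq2 and 644 (without WT replicate 3) to 7975 (without labelled-KO replicate 1) with 1 library left out. Genes called, with the range over libraries left out, were 2 in the PARP family (1 to 5, and 1 with relative-log-expression size factors). PARP9, chosen for its difference, is 1 of those called in each of these fits. Without PARP9 the family had 1 call over 6 libraries (PARP4) and 0 with relative-log-expression size factors, beside 15.1% of all tested genes over 6 libraries. The ADP-ribose list had 1 (1 to 9, 3 with DESeq2 and 2 without the filter). The interferon list had 6 (3 to 14, and 9 without the filter). The Notch list had 5 (2 to 11, and 3 without the filter) and the NAD supply list 3 (0 to 6). The neighbours had 0 (0 to 5, 1 with DESeq2 and 1 without the filter). Without labelled-KO replicate 1 the sign turned for 6 of the PARP and DTX genes, whose log2 fold changes with 1 library left out ran from -1.29 to 0.10 for PARP10, -0.12 to 0.08 for PARP1, -0.19 to 0.12 for PARP2, -0.02 to 0.63 for TNKS2, -0.21 to 0.25 for PARP11 (also -0.01 without WT replicate 3) and -0.04 to 0.28 for ZC3HAV1; the cause was not tested. Of 308 single-gene values, 256 kept direction and side of the threshold, 41 lost the call, 4 gained it and 7 changed sign. PARP14 has a value only without the filter.

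Replicate numbers did not pair the libraries (correlations of deviations -0.058, -0.029 and 0.002). A fit with the replicate block called 969 genes, 3 of them in the interferon list, 2 in the Notch list and 0 in the NAD supply list. In the PARP family it called 1 gene, PARP9, which was chosen for its difference. Depth limits PARP14, PARP15, PARP12, DTX3 and DTX4, which had 12 counts or fewer in each group.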
